A study of Homo sapiens with 20 samples.

Results

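The 10 genes described here encode Wnt ligands (WNT3, WNT4, WNT5A, WNT7A and WNT7B), secreted inhibitors of Wnt signalling (DKK1, SFRP1 and SFRP2), and LEF1 and AXIN2, a nuclear effector and a feedback target of the pathway. They were chosen by name, and for each symbol the coding record with the highest mean over the course was used. They are 10 of the 20237 coding records and of the 38369 records of the series. Every symbol had 1 coding record, and the record of AXIN2 was merged with a neighbouring gene.

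Polyadenylated RNA was sequenced from neural progenitors made from the human embryonic stem cell line H1, an established line. Day 0 is the progenitor state, and days 1, 2, 4, 5, 11 and 18 follow the withdrawal of FGF, the growth factor that keeps these cells dividing, and the addition of the neurotrophin BDNF. The same switch also changed the base medium and its supplements, so every comparison with day 0 spans these changes together. Each day had 3 cultures, except day 5 with 2, because the submitters removed 1 outlying culture. All cultures share the H1 line, so they represent 1 genetic background, and cells for days 5, 11 and 18 had been moved on day 4 to a new surface coated with poly-D-lysine and laminin, so that any step across day 4 also spans this change.

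Wnt proteins are lipid-modified secreted ligands that bind Frizzled receptors together with LRP co-receptors. In the canonical branch this binding spares β-catenin from a destruction complex built on AXIN proteins, and β-catenin then joins TCF/LEF factors on target genes such as AXIN2 itself. SFRP proteins bind Wnts outside the cell and DKK1 blocks the LRP co-receptors. In the developing nervous system Wnt signalling is known for its roles in patterning, progenitor division and the maturation of neurons and synapses.

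All levels are FPKM, fragment counts corrected for transcript length and for the number of mapped fragments. The files give 1 value per record and day, pooled over the cultures of that day. No spread between cultures, no test and no read depth can therefore be given for any value, and neighbours in any order of levels cannot be told apart from their spread. Changes are differences in log2(FPKM + 0.1), which understate the change of low genes, and "past 2-fold" means a difference of at least 1 on that scale. In bulk samples, fewer cells that express a gene and less RNA per cell cannot be told apart.

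CTTTGAA and CTTTGAT, forms of the site that TCF/LEF factors bind, were taken as the core here. These letters were searched on both strands in RefSeq promoter windows of 300 bases (250 before and 50 after each start, RefSeq build GRCh38.p14). The table held 8 promoters of 7 members: WNT3, WNT4, WNT5A, WNT7A, LEF1, DKK1 and SFRP2. The core was found in 1 of these 8, that of DKK1, and in 2409 of all 35116 promoters (6.86%). The shorter letters CTTTGNN, which contain the core, were found in 3 of the 8, those of DKK1, LEF1 and WNT3, and in 47.2% of all promoters. Windows of 30 bases around 1 match of each are printed with the match in capitals, so that the core of DKK1 can be compared with the looser matches. Each is written 5′ to 3′ on the strand of its gene and was located in hg19 by exact match.
DKK1: ccctcccagcgCTTTGAAatcccatcccgg
LEF1: cgccttttcccTCCAAAGaaacttggagga
WNT3: cggggcgcgggCTTTGCCcaagtttgctgg
The DKK1 match began 95 bases before the start (-95, chr10:54073935-54073964, plus strand). The LEF1 match read on the opposite strand, so its capitals are the reverse complement of CTTTGNN. It lay at -126 of a start inside the bounds of the LEF1 record (chr4:109087565-109087594, minus strand). The WNT3 match lay at -221 (chr17:44896261-44896290, minus strand). DKK1 also held CTTTGNN at -76 and, on the opposite strand, at -150, and WNT3 also held it at base 20 after its start. The matches of DKK1 at -76 and of WNT3 at base 20 read CTTTGTT, which the core letters chosen here leave out. A match describes these letters only.

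Among the ligands, WNT7B and WNT7A were higher on day 18 than on day 0. WNT5A was lower, with a change of -0.74 as deposited and -0.14 once recentred on the median of coding records. WNT3 was lower as deposited but higher once recentred, and WNT4 stayed near the lower limit of the tested range. WNT7B (chr22:46316248-46373008, minus strand) encodes a ligand known from the embryonic brain. Its FPKM was 3.71 on day 0, 6.18 on day 1, 5.83 on day 2, 8.45 on day 4, 8.86 on day 5, 17.8 on day 11 and 31.7 on day 18. Every day from day 1 on lay above day 0, and days 11 and 18 lay above all the others. The day 18 value was 8.53-fold that of day 0, a change of 3.06, which ranked 244 from the highest among the 14107 coding records whose mean FPKM reached 0.1.

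WNT7A (chr3:13860082-13921618, minus strand), the closest relative of WNT7B, measured 0.757 FPKM on day 0, 2.30 on day 1, 2.19 on day 2, 2.65 on day 4, 1.76 on day 5, 3.75 on day 11 and 4.54 on day 18. Its largest adjacent difference was the first, 1.49 between days 0 and 1, after which the values up to day 5 lay between 1.76 and 2.65. An antisense record overlaps the end of WNT7A, and without strand their reads cannot be told apart. The day 18 value was 6.01-fold that of day 0, a change of 2.44 and rank 445 from the highest. The ratio of WNT7B to WNT7A FPKM was 4.91 on day 0, 2.68 on day 1 and 6.97 on day 18.

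WNT3 (chr17:44841687-44896082, minus strand), a ligand of the canonical branch, measured 8.03, 9.46, 8.96, 10.8, 10.5, 7.23 and 6.69 FPKM from day 0 to day 18 in order of time. Its highest value was on day 4 and its lowest on day 18, and its range over the days, 0.68 on the log2 scale, was the smallest of the 10 genes. The median range of the tested coding records was 1.01.

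WNT5A (chr3:55499744-55521331, minus strand; 4 isoforms), a ligand best known for β-catenin-independent signalling, measured 8.19, 8.16, 8.07, 8.75, 7.63, 9.01 and 4.85 FPKM over the same days. The values of days 0 to 11 lay within a narrow band, and only day 18 stood below it. The step from day 11 to day 18 was -0.88, and -0.60 relative to the median of coding records.

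WNT4 (chr1:22443800-22470385, minus strand), a ligand of both branches, measured 0.170, 0.341, 0.203, 0.254, 0.388, 0.145 and 0.293 FPKM. It was the lowest of the 10 genes on all 7 days and the 1 member with a mean FPKM under 1. Its up-and-down course at this level has no measured error.

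**Figure D1:**
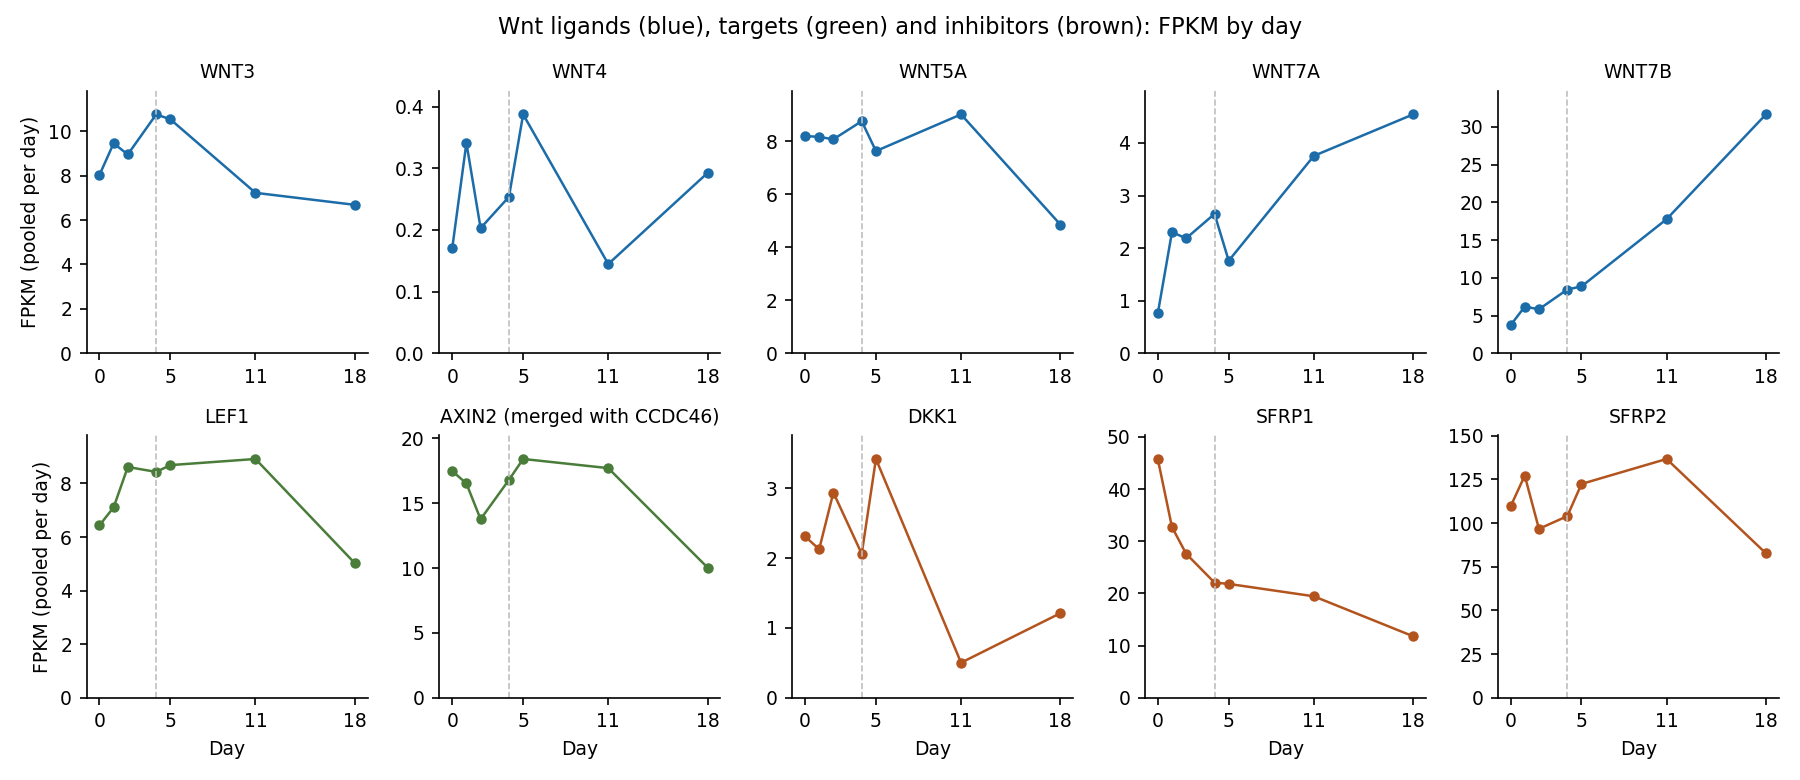
FPKM (vertical axes, 1 pooled value per point) of the 10 Wnt genes against day (horizontal axes), with ligands in blue, LEF1 and AXIN2 in green, inhibitors in brown and a dashed line at the replating on day 4. WNT7B goes from 3.71 to 31.7 and SFRP1 from 45.8 to 11.8, while WNT5A, LEF1, AXIN2 and SFRP2 are lowest on day 18 on this deposited scale.

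Because the ligands can be summed within a day, their composition does not depend on how days were scaled against each other. WNT7B made up 13.6% of the summed FPKM of all 19 WNT ligands on day 0, 17.4% on day 1, 18.2% on day 2, 21.8% on day 4, 24.0% on day 5, 41.8% on day 11 and 61.6% on day 18. WNT5A went from 30.1% to 9.44% and WNT3 from 29.5% to 13.0% between day 0 and day 18, so the ligand transcripts were led by WNT5A and WNT3 on day 0 and by WNT7B on days 11 and 18. WNT7A went from 2.78% to 8.84%. The 5 ligands described here held 76.6% of the ligand total on day 0 and 93.4% on day 18, when the total was 51.4 FPKM against 27.2 on day 0.

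**Figure D2:**
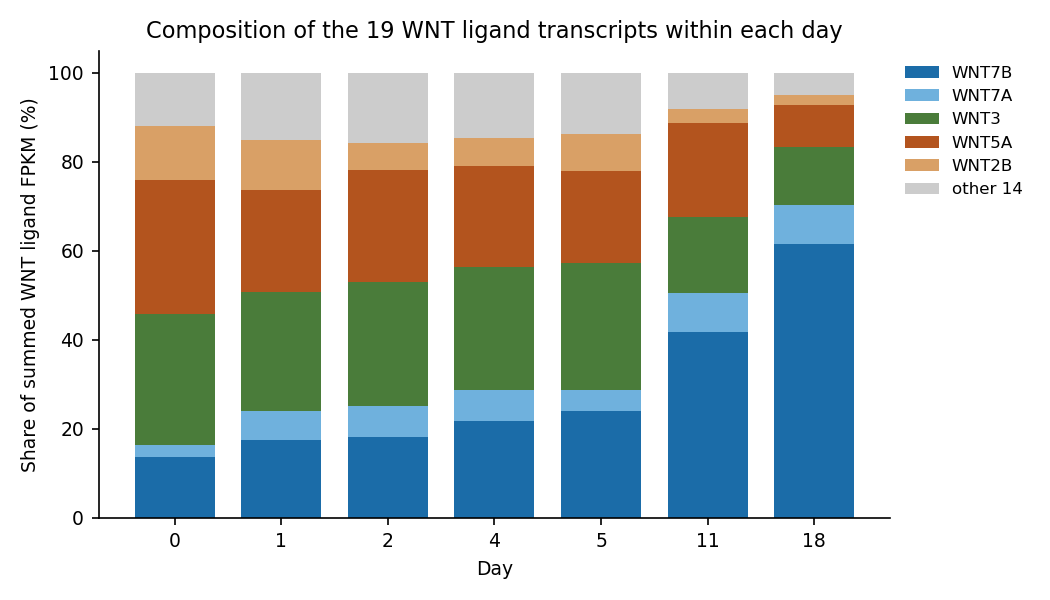
Share of the summed WNT ligand FPKM in percent (vertical axis) held by each ligand on each day (bars); grey stands for the other 14 ligands together. WNT7B holds 13.6% on day 0 and 61.6% on day 18.

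The inhibitors differed from each other. SFRP1 (chr8:41119479-41166980, minus strand), a decoy that binds Wnts through a Frizzled-like domain, measured 45.8 FPKM on day 0, 32.7 on day 1, 27.6 on day 2, 22.1 on day 4, 21.8 on day 5, 19.5 on day 11 and 11.8 on day 18. As deposited, each value was below the one before it. Relative to the median of coding records, the steps ending on days 5 and 11 were 0.06 and -0.002. The change over the course was -1.95, a ratio of 0.258, which ranked 1042 from the lowest of 14107 records.

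SFRP2 (chr4:154701742-154710228, minus strand), its close relative, measured 109.5, 127, 96.7, 104, 122, 137 and 82.7 FPKM over the same days. It was the highest of the 10 genes on all 7 days, and its highest value was on day 11 and its lowest on day 18. The ratio of SFRP2 to SFRP1 was 2.39 on day 0, 5.61 on day 5, 7.03 on day 11 and 7.02 on day 18.

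DKK1 (chr10:54074041-54077416, plus strand), which blocks LRP co-receptors and is itself a known β-catenin target, measured 2.31, 2.13, 2.94, 2.06, 3.42, 0.503 and 1.21 FPKM. The day 5 value was 6.80-fold the day 11 value, the widest gap between adjacent days among the 10 genes. The step from day 5 to day 11 was -2.55, and the one that followed was 1.12.

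Set against WNT7B within each day, both SFRP genes were lower at the end of the course. The ratio of SFRP1 to WNT7B was 12.3 on day 0, 2.46 on day 5, 1.09 on day 11 and 0.373 on day 18. The ratio of SFRP2 to WNT7B was 29.5 on day 0 and 2.61 on day 18. In the order of the 10 levels, WNT7B held rank 7 on day 0 and rank 2 on day 18, and SFRP1 held rank 2 on day 0 and rank 3 on day 18.

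**Figure D3:**
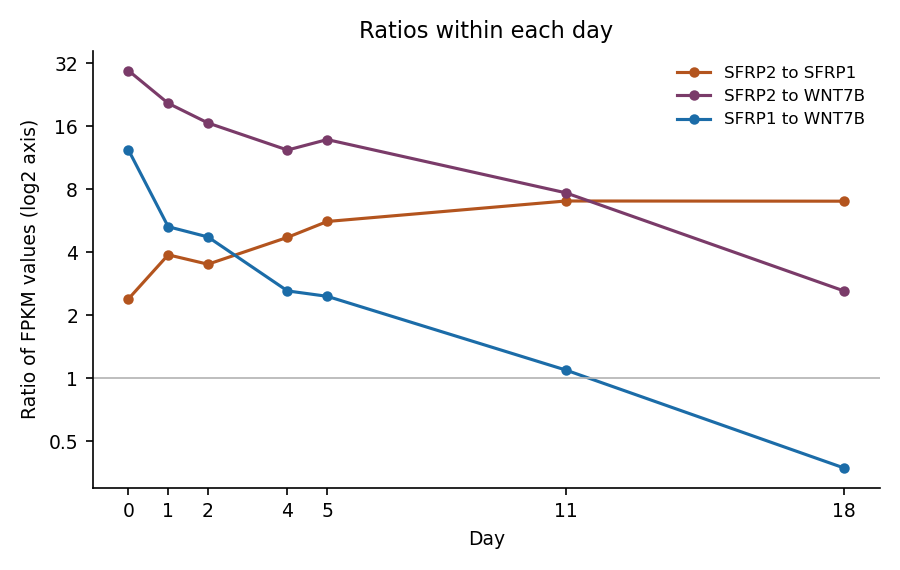
Ratios of FPKM values within each day (vertical axis, log2 scale) against day (horizontal axis) for the pairs of SFRP2, SFRP1 and WNT7B. The ratio of SFRP1 to WNT7B passes from 12.3 to 0.373, and that of SFRP2 to SFRP1 from 2.39 to 7.02.

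LEF1 (chr4:108968701-109089578, minus strand; 8 isoforms), a factor that carries β-catenin to DNA and whose own gene is a known target, measured 6.44, 7.11, 8.61, 8.43, 8.68, 8.91 and 5.02 FPKM. Days 2 to 11 lay between 8.43 and 8.91, with lower values at both ends of the course. LEF1 made up 11.0% of the summed FPKM of the 4 TCF/LEF genes on day 0, 15.4% on day 2, 18.6% on day 11 and 17.3% on day 18, while the sum went from 58.6 to 29.1 FPKM. The TCF7 record in this sum also carries the name of TCF7L2.

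AXIN2, a scaffold of the destruction complex and a widely used readout of β-catenin activity, has no record of its own. Its record (chr17:63524685-64188212, minus strand) also carries CCDC46, an older name of CEP112, a centrosomal gene. Of its 9 isoforms, 3 lay over AXIN2 only, 5 over CEP112 only and 1 over both, although the genes are 73888 bases apart in GENCODE. The values of the record were 17.5, 16.5, 13.8, 16.8, 18.4, 17.7 and 10.0 FPKM. They cannot be split between AXIN2 and CEP112, so no level or change of AXIN2 alone is given. On the deposited scale, the lowest values of LEF1, of the AXIN2 record, of SFRP2, of WNT5A and of WNT3 were all on day 18.

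On the deposited scale the median of coding records moved between days, and whether the scale or the RNA itself changed was not tested. The median change of the 11793 coding records whose mean FPKM reached 1 was -0.60 from day 0 to day 18. For the steps ending on days 1, 2, 5, 11 and 18 it was -0.11, 0.04, -0.07, -0.16 and -0.28. The summed FPKM of coding records was 358744 on day 0 and 216151 on day 18. Relative to that median, the changes from day 0 to day 18 were 3.66 for WNT7B, 3.04 for WNT7A, 1.14 for WNT4, -0.14 for WNT5A, -0.20 for the AXIN2 record, -0.28 for DKK1 and -1.35 for SFRP1. For WNT3 the sign depended on the scale, at -0.26 as deposited and 0.34 when recentred. The same held for LEF1, at -0.35 and 0.25, and for SFRP2, at -0.40 and 0.19. As deposited, WNT4 stood at 0.54, WNT5A at -0.74, the AXIN2 record at -0.79 and DKK1 at -0.88. The directions of WNT7B, WNT7A and SFRP1, and their place past 2-fold, were the same on both scales.

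**Figure D4:**
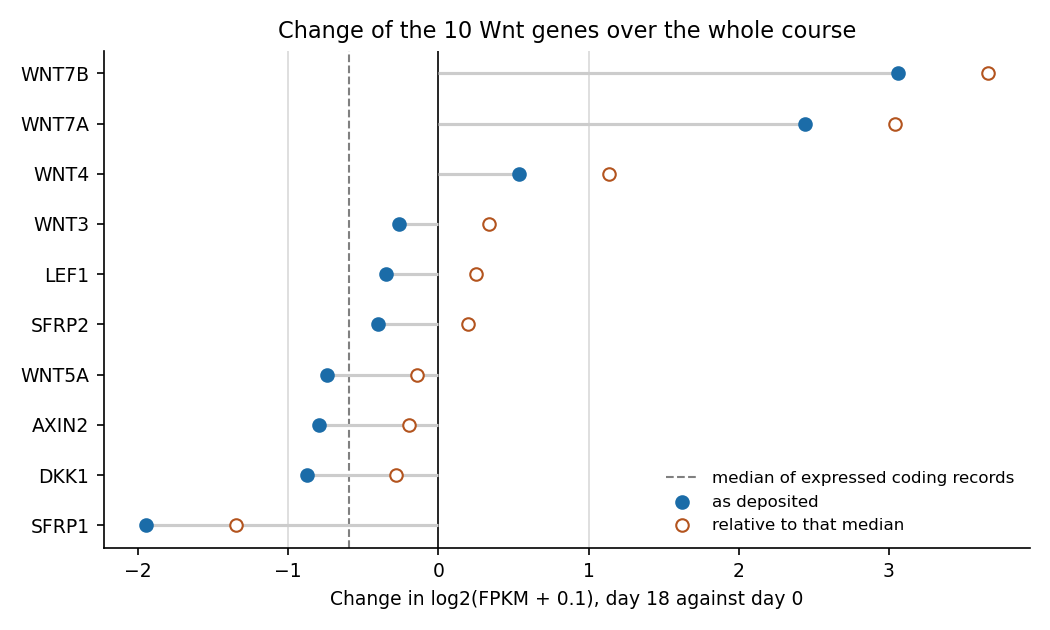
Change in log2(FPKM + 0.1) from day 0 to day 18 (horizontal axis) of the 10 Wnt genes, as deposited (filled points) and relative to the median of expressed coding records (open points); the dashed line is that median, -0.60, and thin lines mark a 2-fold difference. WNT7B, WNT7A and SFRP1 lie past 2-fold on both scales, and WNT3, LEF1 and SFRP2 lie on different sides of 0.

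The steps show when each difference arose. They share days with each other and with the whole course, so they are not independent. From day 0 to day 1, WNT7A alone of the 10 genes was past 2-fold higher, against 4.61% of tested records, and none was past 2-fold lower, against 3.68%. No member was past 2-fold from day 1 to day 2 (0.269% of records higher and 0.298% lower), from day 2 to day 4 (0.184% and 1.11%) or from day 4 to day 5 (0.432% and 0.106%), the step that spans the replating.

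From day 5 to day 11, WNT7A was past 2-fold higher at 1.05, against 2.56% of records, and DKK1 past 2-fold lower, against 4.57%. WNT7B stood at 0.996 on this step, just under the 2-fold line, and at 1.16 relative to the median. From day 11 to day 18, DKK1 was past 2-fold higher, against 1.66%, and none was past 2-fold lower, against 3.54%. On this step WNT7B stood at 0.83, and at 1.11 relative to the median.

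Over the whole course, WNT7B and WNT7A were past 2-fold higher, 2 of 10 against 10.6% of records, and SFRP1 was past 2-fold lower, 1 of 10 against 28.2%. Relative to the median, WNT4 joined the higher members, 3 of 10 against 19.3%, and SFRP1 was the 1 lower member against 12.1%. Of all records past 2-fold, 27.3% were higher as deposited, and 61.5% once recentred on the median, so the split between directions rests on the scale. The same share went from 55.6% to 69.6% for day 1 against day 0, from 35.9% to 53.9% for day 11 against day 5, and from 31.9% to 70.8% for day 18 against day 11. The median change of the 10 genes was -0.38, against -0.52 over the tested records.

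The rest of the pathway was read from lists of its parts, counted from day 0 to day 18. Of 89 other pathway genes, all had a record and 68 passed the minimum mean FPKM of 0.1. Of these 68, 5 were past 2-fold higher and 22 lower as deposited, and 15 higher and 10 lower relative to the median. These are 7.35% and 32.4% as deposited, against 10.6% and 28.2% of all tested records, and 22.1% and 14.7% once recentred, against 19.3% and 12.1%. The same 4 background shares apply to each list that follows. The median change of the 68 genes was -0.54, and 0.06 once recentred.

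Of the 14 other ligands, 7 passed the minimum, and 2 of them were past 2-fold lower as deposited and none higher, while relative to the median 2 were higher and none lower. WNT2B went from 3.30 to 1.15 FPKM, a change of -1.45, and WNT9A from 0.704 to 0.253, with a higher value of 1.89 on day 4. For the release of Wnts, WLS, the carrier that takes lipid-modified Wnts to the cell surface (listed as GPR177), went from 174 to 63.2 FPKM, a change of -1.46. PORCN, the acyltransferase that adds the lipid, went from 2.50 to 4.14 FPKM, a change of 0.70.

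Of the 10 Frizzled receptors, 6 were past 2-fold lower and none higher as deposited, and 5 lower and none higher relative to the median. The background for lower records is 28.2% and 12.1%. FZD6 went from 13.8 to 1.71 FPKM, FZD5 from 4.75 to 0.885, FZD9 from 1.47 to 0.311 and FZD2 from 38.8 to 11.3, changes between -2.94 and -1.77. Of 7 co-receptors and alternative receptors, 4 were past 2-fold lower, and 2 relative to the median. ROR2, a receptor for WNT5A, went from 3.83 to 0.146 FPKM, a change of -4.00. GPC4, a cell-surface proteoglycan, went from 187 to 39.0 FPKM, and RYK from 20.3 to 9.63. PTK7 measured 12.4 FPKM on day 18, a change of -1.36.

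R-spondins and their LGR receptors strengthen Wnt signals by protecting Frizzled from turnover. Of these 7 genes, 3 passed the minimum, and 2 of them were past 2-fold higher on both scales. They were LGR5 (0.426 to 1.71 FPKM) and RSPO3 (0.0131 to 0.747 FPKM), named after their values were seen because their means were under 1. LGR4 went from 20.7 to 16.5 FPKM. Among 5 inhibitors in the membrane, 2 were past 2-fold lower as deposited, KREMEN1 (10.6 to 4.16 FPKM) and TPBG (7.33 to 2.97). Relative to the median none was lower and 1 was higher. ZNRF3, a ligase that removes Frizzled and is also a known target, went from 8.56 to 4.70 FPKM, and KREMEN2 from 0.701 to 0.361.

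Of 12 other inhibitors listed as secreted, 7 passed the minimum, with 1 past 2-fold higher and 3 lower as deposited, and 3 higher and 2 lower relative to the median. DRAXIN, an axon guidance protein that also antagonises Wnt (listed as C1orf187), measured 4.18, 13.7, 16.7, 26.8, 28.5, 47.7 and 34.4 FPKM from day 0 to day 18, a change of 3.01. DKK2, a relative of DKK1, measured 4.26 FPKM on day 0, 1.06 on day 1 and 0.348 on day 18. DKK3 went from 23.1 to 35.7 FPKM and APCDD1, a membrane-bound inhibitor kept on this list, from 10.5 to 10.1.

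Within the summed FPKM of the 15 inhibitors listed as secreted, SFRP1 went from 22.6% on day 0 to 6.62% on day 18, SFRP2 from 54.1% to 46.4%, and DKK1 from 1.14% to 0.680%. DRAXIN went from 2.06% to 19.3% and DKK3 from 11.4% to 20.0%. APCDD1, which is membrane-bound, held 5.18% and 5.65% of the sum. The sum itself was 203 FPKM on day 0 and 178 on day 18.

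Of 11 genes of the β-catenin core and its destruction complex, 1 was past 2-fold higher and 1 lower, and relative to the median 3 were higher and none lower. CTNNB1, which encodes β-catenin, went from 245 to 113 FPKM, a change of -1.11. The scaffolds APC2 and APC went from 16.5 to 43.8 FPKM and from 10.5 to 19.1, and the kinase gene CSNK1A1 from 105 to 52.4. Of 12 TCF factors and nuclear partners, 11 passed the minimum, with 2 past 2-fold lower and none higher, and 1 in each direction relative to the median. TCF7L2 went from 27.1 to 9.06 FPKM. The TCF7 record, which also carries the name of TCF7L2, went from 2.94 to 0.849. The TLE1 record, which also carries the name of TLE4, went from 19.1 to 30.8. Both lie apart from the records used for TCF7L2 and TLE4. PYGO2 measured 23.4 FPKM on day 0, and its change was -0.96.

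Of 15 other genes known as β-catenin targets, some of which also stand in the lists above, 10 passed the minimum, with 2 past 2-fold higher and 2 lower as deposited, and 4 higher and 1 lower relative to the median. Their members stood on both sides. TNFRSF19, a receptor of the TNF family, went from 1.54 to 4.65 FPKM, a change of 1.53. CCND1, which encodes cyclin D1 and drives entry into the cell cycle, went from 75.3 to 35.5 FPKM, a change of -1.09. Of the targets given above, ZNRF3 and the TCF7 record were lower on day 18, LGR5 was past 2-fold higher, and APCDD1 stood at -0.06. The median change of the list was 0.02, and 0.62 once recentred.

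**Figure D5:**
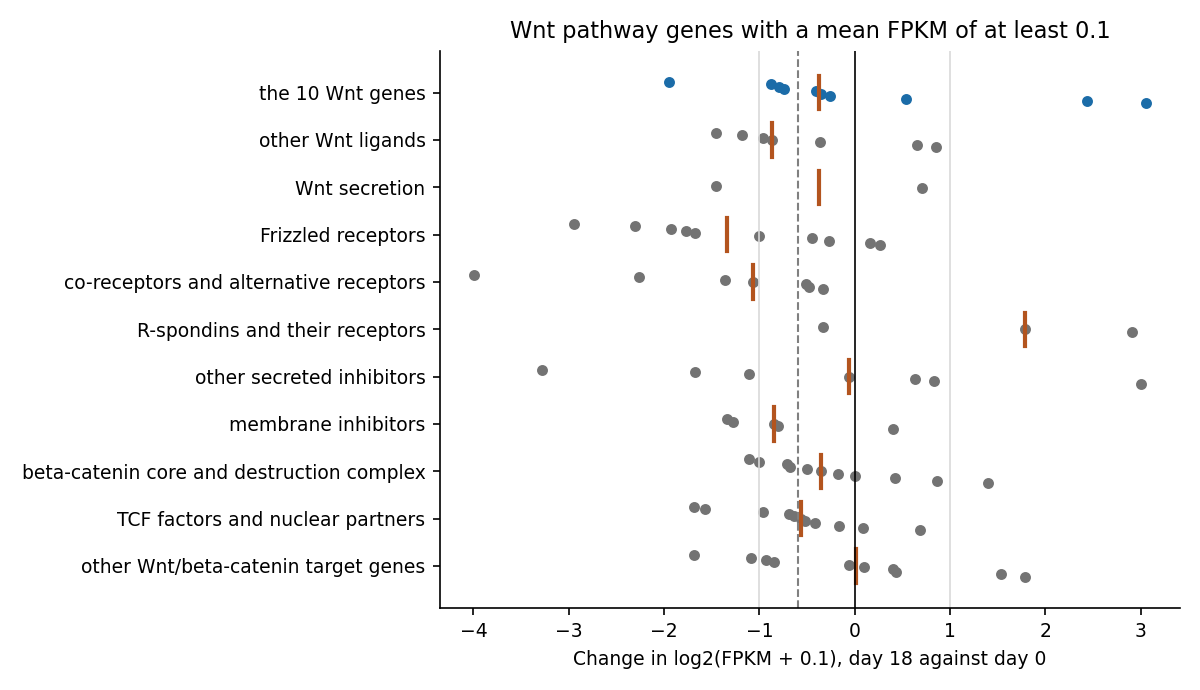
Change in log2(FPKM + 0.1) from day 0 to day 18 (horizontal axis) of each pathway gene whose mean FPKM reached 0.1, by list, with the 10 Wnt genes on top in blue; upright bars are list medians, the dashed line is the median of expressed coding records, -0.60, and thin lines mark a 2-fold difference. None of the 10 Frizzled receptors lies past 2-fold higher, where 10.6% of all tested records lie, and 6 lie past 2-fold lower, against 28.2%.

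Markers of cell state moved over the same days. The labels call the cells neural progenitors, and on day 0 NES measured 513 FPKM and SOX2 126. POU5F1 and NANOG, which define pluripotent cells, were at most 0.108 FPKM on any day. For POU5F1 this is the record with the highest mean of 8, and the others were not summed. DPPA4, also on the pluripotent list, went from 9.72 to 2.25 FPKM. Summed over 6 progenitor markers, FPKM went from 903 on day 0 to 560 on day 18. As deposited, 1 was past 2-fold higher (PAX6) and 1 lower (NES). Relative to the median of coding records, 2 were higher (PAX6 and FABP7) and none lower, and the median change of the 6 was 0.08. The backgrounds given for the pathway lists apply here too. The sum of 7 neuronal markers went from 342 to 1256, with 6 past 2-fold higher. GAP43, the other 1, measured 193 FPKM on day 0, 55.7 on day 1 and 173 on day 18. The 5 markers of dividing cells went from 435 to 73.2, and all 5 were past 2-fold lower. Of 6 mesenchymal markers, 5 passed the minimum and all 5 were past 2-fold lower (3 relative to the median), their sum going from 282 to 37.5. The PDGFRB record, counted as lower on both scales, also carries the name of CSF1R. COL1A1 was listed at 0 on all 7 days. The part of these shifts in the values of WNT7B, WNT7A and SFRP1 was not tested.

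Other cell types had lower sums. The 5 markers of roof plate, cortical hem and choroid plexus, tissues known as sources of Wnts in the embryo, summed to between 0.373 and 0.596 FPKM on the 7 days, and TTR was at 0 on all days but day 18. Of 3 neural crest markers, TFAP2A went from 0.0415 to 2.67 FPKM, while SOX10 was at most 0.165 and FOXD3 at most 0.0873. The astrocyte list went from 9.21 FPKM on day 0 to 0.797 on day 2 and was back at 4.50 on day 18. Most of it was S100B, with GFAP at most 0.186. The oligodendrocyte list was at most 0.546 FPKM, and the endothelial list, of which PECAM1 had no record, went from 4.84 to 0.127.

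Across the 7 days, the coding records whose log2 courses lay nearest to each member were found by the root mean square distance between courses, each less its own mean. Nearest to WNT7B were MAST1 (distance 0.12), AFF2 and TMOD2 (both 0.15), each with a Pearson correlation of 0.99 over 7 days. MAST1 went from 1.87 to 15.8 FPKM. Nearest to WNT7A were RIMS4 (0.16), ZSWIM5 (0.19) and PAX7 (0.20). Nearest to SFRP1 were SLC9A3R1 (0.08), TRIM71 (0.09) and MSRA (0.10), of which SLC9A3R1 went from 25.0 to 7.62 FPKM.

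The other members lay near records with flatter courses. These were TRIM24, SESN1 and GLI3 for the AXIN2 record, C2orf68, ALMS1 and SOX1 for LEF1, SHOC2, CA5BP and COG6 for WNT3, and GREB1, PBLD and SH3BGRL for SFRP2. For WNT5A they were AASS, the merged record of CHRFAM7A and CHRNA7, and HNRNPA1. DKK1 had no close neighbour, since the nearest record, DIRAS2, lay at a distance of 0.31. Among the members themselves, WNT5A and the AXIN2 record lay closest (distance 0.14, r = 0.87), and WNT7A and WNT7B lay 0.48 apart (r = 0.87). These correlations are descriptions over 7 days that share 1 scaling, and they carry no test.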

How the data were processed

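Poly(A)+ RNA libraries of 20 cultures were sequenced. Per the study's methods and the submitters' processing notes, the authors used TopHat2 for alignment to hg19 and Cufflinks for assembly, joined the assembly to coding genes and a lincRNA catalogue, and took expression from Cuffdiff2, run with its default options. Program versions and counting by strand are not given in the sources used here. The authors deposited FPKM values, 1 per record and day over the cultures of that day. Columns with values of single samples used here numbered 0. A second deposited table holds the authors' fold changes, test statistics and p- and q-values for adjacent days, which were not used. Names and exon bounds were taken from it.

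Groups were taken from the sample titles. Changes in log2(FPKM + 0.1) were computed with Python 3.11.15, pandas 2.3.3 and numpy 2.4.6 over coding records whose mean FPKM reached 0.1. The calculation was tested on simulated data without noise, which checks the arithmetic only. Of each pathway list, up to 4 genes whose mean FPKM reached 1, with the largest absolute change, were named (both genes in a list of 2). For each member whose mean FPKM reached 1, the 3 nearest records were named. Members and lists were chosen with earlier results of these data known. Isoforms and neighbouring genes were placed with GENCODE in GRCh37, and promoter sequences came from RefSeq. Depth is unknown, so no interval was computed. Alternatives were the pseudocount, the filter, the fold, the record of a symbol, the motif letters and recentring on the median of coding records.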

Additional observations from a re-analysis of the deposited data

How the results depend on the processing

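No paired analysis was possible because the files hold 1 pooled value per day, and for the same reason no culture could be left out. Recentring on the coding median turned the direction of WNT3 (0.34), LEF1 (0.25) and SFRP2 (0.19) from day 0 to day 18, and gave 2 members past 2-fold higher at day 11 against day 5 (3.81% of all tested records), 2 at day 18 against day 11 (3.3%) and 3 over the whole course, WNT4 added (19.3%). With a pseudocount of 1, no member (0) was past 2-fold higher at day 1 against day 0 (1.3% of all tested records). The same held at day 11 against day 5 (0.964%) and at day 18 against day 11 (0.468%). With a pseudocount of 0.01, the step from day 5 to day 11 held 2 higher (3.43% of records) and 2 lower (6.05%). At 1.5-fold, the counts, with the share of all tested records at that fold, were 3 higher from day 0 to day 1 (12.6%), 1 higher from day 4 to day 5 (3.13%), 2 higher (6.78%) and 2 lower (12.1%) from day 5 to day 11, 3 higher (4.78%) and 5 lower (13.9%) from day 11 to day 18, and 4 lower from day 0 to day 18 (47.0%). With the looser letters CTTTGNN, 3 of 8 member promoters matched in place of 1. A minimum mean FPKM of 1 removed WNT4 and left every count as it was. Dropping the filter or summing the records of a symbol could not change a count, because all 10 genes passed the filter and each has 1 coding record. The depth behind the FPKM values is unknown, so the low values of WNT4, WNT7A at day 0 and DKK1 at days 11 and 18 have no stated precision.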

Other observations

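The catalogue holds 17 long noncoding RNA records named after members of these Wnt genes, of which 9 reached a mean FPKM of 0.1 and 1 a mean of 1. Exon bases were shared with the coding record by 10 of them. The antisense record at WNT7A (chr3:13858227-13861133, plus strand) measured 0.140, 0.758, 0.641, 0.714, 0.523, 1.47 and 1.49 FPKM from day 0 to day 18, a change of 2.73. Of its exon bases, 33.0% lay in exons of the WNT7A record and 91.6% in exons of WNT7A in GENCODE, so without strand its reads and those of WNT7A cannot be told apart. The antisense record at the end of WNT5A (chr3:55499741-55504798, plus strand) shared 95.4% of its exon bases with WNT5A and was at most 0.291 FPKM.

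The record upstream of WNT3, on the same strand (chr17:44907888-44911639), had the highest mean of the 17, 1.12 FPKM, and 67.8% of its exon bases lay in WNT3 exons in GENCODE, which reach beyond the coding record used here. The record that runs from LEF1 in the opposite direction (chr4:109086248-109177992, plus strand) measured 0.416 FPKM at day 0, 0.626 at day 11 and 0.365 at day 18. On the deposited scale its highest value was at day 11 and its lowest at day 18, the same days as for LEF1. It shared 13.7% of its exon bases with the LEF1 record, and 20.4% lay in LEF1 exons in GENCODE. Without strand, reads from these bases cannot be told apart from those of LEF1.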
